A study of Homo sapiens with 12 samples.

Results

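The 35 genes described here belong to the amino acid stress response that the transcription factor ATF4 directs. They were listed by name as known ATF4 targets with ATF4 itself, and each was read through the brightest probe whose RefSeq accession maps to its symbol, so that 35 of 25275 genes tested form the list. They fall into 12 enzymes of amino acid synthesis and the folate and redox steps beside it, 8 amino acid transporters, and 15 transcription factors and other stress factors. All 35 had a probe that was well above background on 12 of 12 arrays.

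ATF4 works downstream of the initiation factor eIF2. When a cell runs short of amino acids, or its endoplasmic reticulum, heme or viral sensors are triggered, eIF2 kinases phosphorylate eIF2, most translation slows, and the ATF4 transcript is translated more efficiently. ATF4 then pairs with C/EBP proteins on C/EBP-ATF response elements and raises genes that import or make amino acids. With longer stress it raises factors such as DDIT3 (CHOP) and TRIB3 that turn the response down or lead to cell death. Much of the control of ATF4 itself is in translation, which an array of transcripts does not measure.

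RNA came from Daoy cells, an established human medulloblastoma (MB) line, harvested after passage 1 (P1) or passage 3 (P3), each passage lasting 48 h. The cells were kept either in astrocyte conditioned medium (ACM), which had been on primary neonatal rat astrocytes, or in control DMEM with fetal bovine serum. Each of the 4 groups, P1 ACM, P1 DMEM, P3 ACM and P3 DMEM, has 3 arrays from experiments that the labels call independent, and the cells carried no engineered allele. The conditioned medium is a mixture of what rat cells release and what they leave of the original nutrients, in a single tumour line.

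Arrays that share a scan time were taken to share a slide, and by this the 12 arrays lay on 3 slides of 4. Slide 1 carried P3 ACM 1 beside all 3 arrays of P1 ACM, slide 2 held P3 ACM 2 and 3 with P1 DMEM 1 and 2, and slide 3 held P1 DMEM 3 with the 3 P3 DMEM arrays, so medium and slide cannot be told apart within a passage. The share of probes well above background was 91.0% to 94.6% on slide 1, 74.3% to 80.4% on slide 2 and 88.1% to 91.0% on slide 3. The sample names are also in conflict between the 2 deposited forms of the data. Every column of the table of log2 values ranks its probes as the scanner output of another sample does (Spearman's rho of at least 0.999986, against 0.953 to 0.992 with the array of its own name). The scanner output was read under its own labels, and the main counts are given under the labels of the table as well. Among the Daoy markers VIM, CD44, MYC, NES, SOX2, GLI2 and PTCH1 were well above background on 12 arrays and ZIC1 on 11. GFAP, which defines astrocytes, was above background on 7 and did not pass the filter.

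In the text a level is the log2 intensity of a probe from which that of the 75th percentile on the same array is subtracted, so that 0 is that percentile and a difference of 1 between arrays is 2-fold. The study called a gene changed at more than 2-fold and p of 0.05 or less. That rule is used here with the unadjusted p of limma, and p-values adjusted over all kept probes are given beside it.

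The element that ATF4 and its C/EBP partners bind was looked for in the promoters of the list as a description. Known ATF4 targets are in part known through this element, so its share in the list is not independent of how the genes were chosen. The letters TGATGNAA on either strand were searched in RefSeq windows from 250 bases before to 50 bases after the first listed start site of a gene (GRCh38.p14). Windows were found for 29 of the 35 genes, and 5 of them (17.2%) held the letters, against 1270 of 35116 windows (3.62%). The 5 genes were ASNS, SLC7A1, SLC3A2, ATF3 and CHAC1. PSPH, SHMT2, ALDH1L2, PYCR1, SLC7A11 and NUPR1 had no entry. The stretches that hold the element are shown so that the genes can be compared by sequence as well as by level, with the match in capitals.
ASNS promoter, chr7:97872429-97872516, minus strand: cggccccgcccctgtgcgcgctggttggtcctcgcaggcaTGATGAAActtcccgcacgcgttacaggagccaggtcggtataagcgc
ATF3 promoter, chr1:212565176-212565263, plus strand: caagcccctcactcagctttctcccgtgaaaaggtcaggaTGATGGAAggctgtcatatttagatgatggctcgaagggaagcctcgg
CHAC1 promoter, chr15:40953222-40953309, plus strand: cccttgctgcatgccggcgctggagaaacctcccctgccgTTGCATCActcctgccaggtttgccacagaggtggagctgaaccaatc
SLC7A1 start site, chr13:29595663-29595692, minus strand: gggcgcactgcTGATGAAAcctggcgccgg
SLC3A2 start site, chr11:62881725-62881748, plus strand: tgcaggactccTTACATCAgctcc
In CHAC1 and SLC3A2 the match is on the opposite strand, so it is printed as its reverse complement. Counted from the start site in bases, the match began at −68 in ASNS, at −191 in ATF3 and at −209 in CHAC1, and at 7 in SLC7A1 and 37 in SLC3A2. Read through their brightest probes, ASNS, ATF3, CHAC1 and SLC3A2 had ranges of 1.95, 2.60, 1.93 and 1.88 over the 12 arrays on the log2 scale. SLC7A1, which carries arginine and lysine, had the narrowest of the list (0.36).

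**Figure D1:**
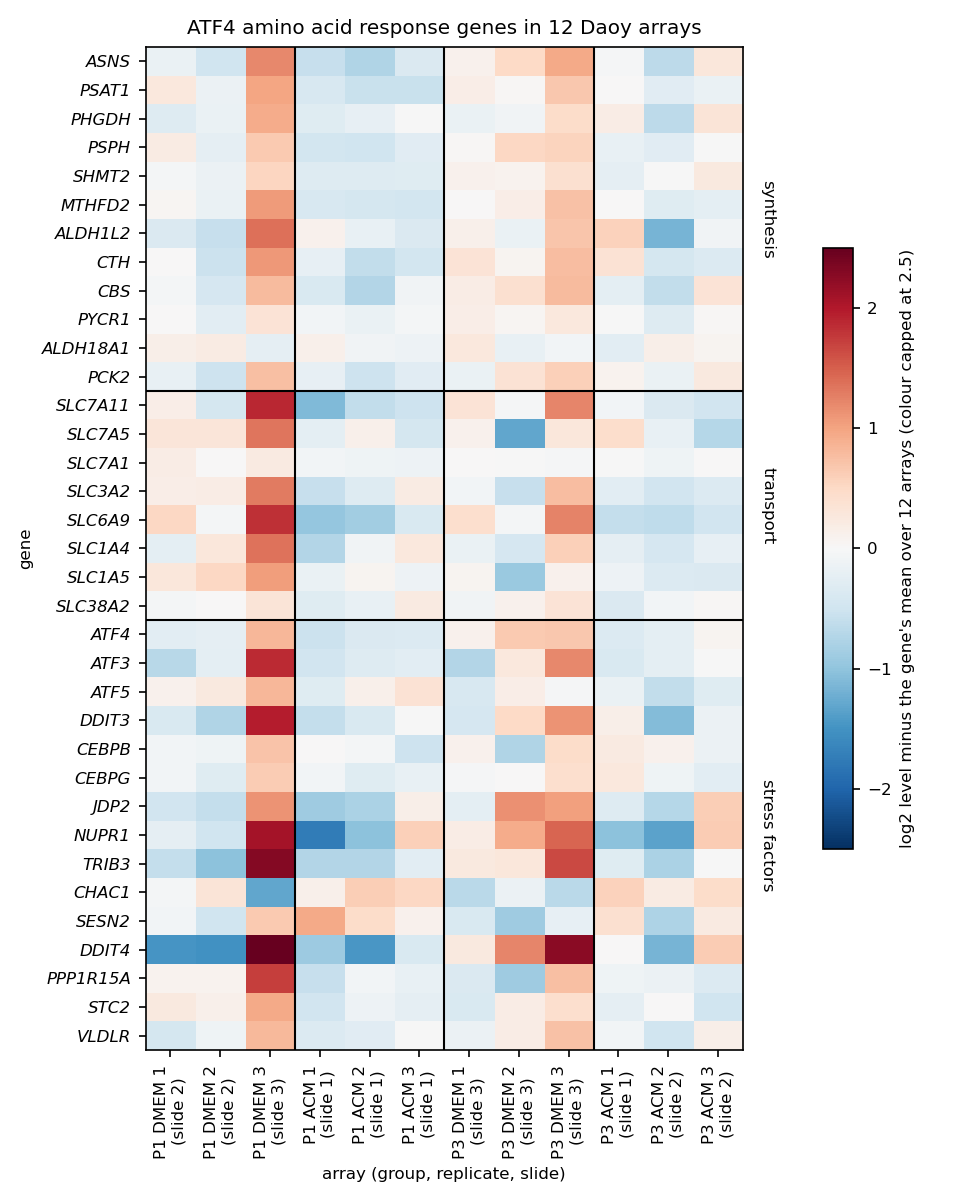
Level of each of the 35 genes (rows, in 3 groups by role) on each of the 12 arrays (columns, by group, replicate and slide), as log2 difference from the mean of the gene over the 12 arrays, red for higher and blue for lower. P1 DMEM 3 is the highest array for 29 of the 35 genes. CHAC1 is shown by its brighter probe, which runs opposite to the genes around it, unlike its other probe.

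The first comparison asked what 48 h in ACM did to these genes. At P1 the mean was lower in ACM than in DMEM for 33 of the 35 genes, where 36.1% of all genes tested were lower. It was higher for CHAC1 and SESN2 (63.9%). In this and all later counts CHAC1 stands for its brighter probe, and its other probe went the opposite way (−1.18 at P1 and −1.29 at P3). The median difference of the 35 genes was −0.60, against 0.15 for all genes. Of the 35, 2 were past the study's thresholds, both lower and both transporters, SLC6A9 and SLC7A11 (0.0989% of all genes were lower by this rule). None of the 35 was past them higher, where 13.5% of all genes were, and 13.6% of all genes were past them in either direction. At p of 0.05 or less without the fold threshold 7 were lower (0.906% of genes) and none was higher (23.1%), and by limma with adjustment over all probes the count at 0.05 was 0, as it was for all genes tested. The ACM and DMEM arrays did not overlap for 12 genes, all lower in ACM (5.36% of genes), and for none that was higher (30.6%). Bright probes shifted down in ACM as a class, and most of the list is bright. Of the 2940 genes with a mean level above 2, 75.3% were lower in ACM with a median of −0.11, and 13 of the 14 listed genes in that range were lower with a median of −0.47. Of the 4616 genes between 0 and 2, 62.4% were lower with a median of −0.06, and 12 of the 13 listed genes were lower with a median of −0.72. Of the 12334 genes below −2, 13.3% were lower with a median of 0.61, and all 5 listed genes there were lower with a median of −0.36. The shares over all genes at P1 therefore include many dim probes that were higher in ACM, whereas most of the list is bright.

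By role, all 12 synthesis genes were lower at P1 (median −0.47), 3 of them at p of 0.05 or less. All 8 transporters were lower (median −0.74), 3 at that p. Of the 15 stress factors 13 were lower (median −0.52), with STC2 alone at that p. The size of these differences rested to a large part on a single control array. Without P1 DMEM 3 the count of genes lower in ACM was 23 of 35, the median was −0.17, none was past both thresholds and 2 (SLC6A9 and PSAT1) were lower at p of 0.05 or less. The share of all genes is not given for this or any later alternative fit, so such counts describe the 35 genes alone.

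After 3 passages the comparison was repeated on other arrays. At P3 31 of the 35 genes were lower in ACM (49.6% of all genes) and 4 were higher (50.4%), namely CHAC1, SESN2, SLC7A5 and CEBPB, with a median of −0.40 against 0.00 for all genes. SLC6A9 was the gene past both thresholds (0.819% of genes were lower by this rule and 1.73% in either direction). At p of 0.05 or less SLC6A9, ATF4 and PSPH were lower (3.43% of genes) and CHAC1 was higher (3.84%), and by limma with adjustment the count was 0. The groups did not overlap for 8 genes that were lower (5.02% of genes) and for CHAC1, which was higher (4.74%). All 12 synthesis genes were lower again (median −0.44), as were 7 of the 8 transporters (median −0.27) and 12 of the 15 stress factors (median −0.40). Bright genes were lower as a class at P3 also, 76.3% of those above a mean level of 2, with a median of −0.17 against −0.35 for the 14 listed genes there. Without P3 DMEM 3 the count was 26 of 35, the median was −0.16 and no gene had p of 0.05 or less.

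The table of log2 values, read under its own labels, gave another picture at P3. At P1 31 of the 35 genes were lower in ACM and none was past the thresholds. At P3, where the share of all genes under these labels is not given, 25 of the 35 were higher in ACM. SLC7A11 was past the thresholds higher by 1.12 and SESN2 past them lower at −1.26. The direction at P3 therefore depended on which of the 2 sets of labels was used, and which set is right was not settled by the files. The array read here as P1 DMEM 3 is a P1 DMEM sample under both sets, whereas P3 DMEM 3 has a P3 ACM name in the table.

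**Figure D2:**
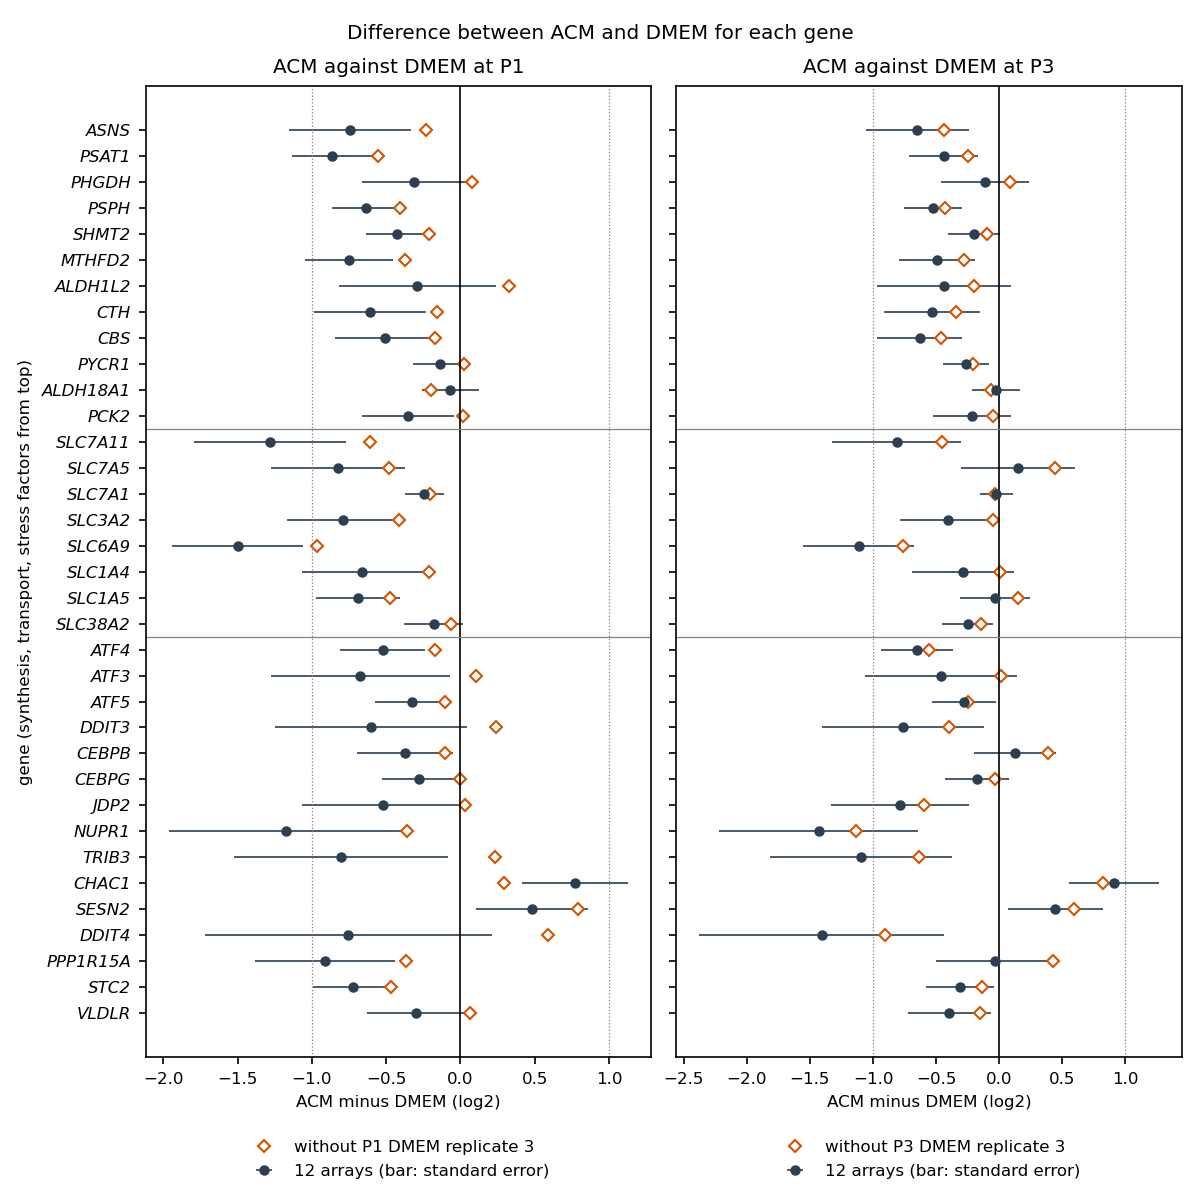
Difference in level between ACM and DMEM (log2, 3 arrays against 3) for each of the 35 genes at P1 and at P3, with the standard error of the fit as a bar and dotted lines at 2-fold. Open diamonds give the difference without replicate 3 of DMEM, and at P1 they lie nearer to 0 than the filled points for most genes.

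Among the transporters SLC6A9 had the largest difference at both passages in the scanner output. SLC6A9 is the glycine transporter GLYT1. At P1 it read 1.03, 0.45 and 2.34 in the 3 DMEM arrays and −0.45, −0.36 and 0.13 in the 3 ACM arrays. At P3 it read 0.94, 0.47 and 1.75 in DMEM and −0.08, −0.13 and 0.03 in ACM. Every ACM array was thus below every DMEM array of its passage, with DMEM 3 the highest of each control group. The difference was −1.50 with a standard error of 0.44 at P1 (2.83-fold, limma adjusted p = 0.103) and −1.11 at P3 (2.16-fold, adjusted p = 0.69), past the study's thresholds at both. The exact two-sided permutation test gave p = 0.1 at each passage, the smallest that 3 against 3 arrays allow. A second probe for SLC6A9, on another transcript, differed by −1.23 at P1 and by −0.91 at P3, with an unadjusted p of 0.05 or less at P1. With any single array left out SLC6A9 kept a p of 0.05 or less at P1 in all 12 cases, and its difference was −0.97 without P1 DMEM 3. At P3 it kept it in 9 of 12 cases, not without P3 ACM 1, P3 ACM 2 or P3 DMEM 3, and its difference was −0.76 without P3 DMEM 3. With slide as a block it was −0.94 at P1 and 0.50 at P3, neither at p of 0.05 or less.

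SLC7A11, the cystine and glutamate exchanger, was lower in ACM with less support. It read −0.32, −0.91 and 1.40 in P1 DMEM and −1.58, −1.09 and −0.997 in P1 ACM. At P3 it read −0.13, −0.51 and 0.75 in DMEM and −0.54, −0.83 and −0.95 in ACM. The groups did not overlap at either passage, but at P3 ACM 1 lay just under DMEM 2. The difference was −1.28 at P1 (standard error 0.51, adjusted p = 0.164) and −0.81 at P3 (adjusted p = 0.731). Without P1 DMEM 3 it was −0.61 at P1 and without P1 ACM 1 it was −1.10, neither at p of 0.05 or less. SLC3A2, the heavy chain that carries SLC7A11 and the leucine transporter SLC7A5 to the membrane, differed by −0.79 at P1 (adjusted p = 0.248) and by −0.41 at P3 (adjusted p = 0.797). SLC7A5 itself differed by −0.83 at P1 (adjusted p = 0.317) and by 0.15 at P3 (adjusted p = 0.94). The neutral amino acid transporter SLC1A5 was lower at P1 (−0.69, adjusted p = 0.172) and differed by −0.03 at P3 (adjusted p = 0.981). SLC1A4 and SLC38A2, which carry small neutral amino acids, differed by −0.66 and −0.18 at P1, neither at p of 0.05 or less.

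Among the synthesis genes PSAT1 and PSPH of the serine pathway had the smallest p-values at P1, and PSPH and CBS at P3. PSAT1, which makes phosphoserine, read 3.34, 2.93 and 4.06 in P1 DMEM and 2.69, 2.52 and 2.53 in P1 ACM. The P3 values were 3.24, 3.11 and 3.76 in DMEM and 3.09, 2.79 and 2.92 in ACM, again with no overlap. The difference was −0.87 at P1 (standard error 0.27, adjusted p = 0.106) and −0.44 at P3 (adjusted p = 0.73). PSPH, which releases serine from phosphoserine, read 2.52, 2.10 and 2.98 in P1 DMEM and 1.85, 1.82 and 2.03 in P1 ACM. Its P3 levels were 2.35, 2.83 and 2.87 in DMEM and 2.13, 2.04 and 2.32 in ACM. All ACM arrays of PSPH lay below all DMEM arrays of the same passage, and its difference was −0.63 at P1 (adjusted p = 0.133) and −0.52 at P3 (adjusted p = 0.703). PHGDH, the first enzyme of the pathway, differed by −0.31 at P1 and by −0.11 at P3, with overlapping groups. The mitochondrial folate enzyme MTHFD2 was lower at P1 (−0.75, adjusted p = 0.162) and differed by −0.49 at P3 (adjusted p = 0.725), without overlap at either passage.

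ASNS, asparagine synthetase, is the classical readout of amino acid shortage. It read 3.18, 2.86 and 4.55 in P1 DMEM and 2.77, 2.61 and 2.98 in P1 ACM. The P3 arrays read 3.46, 3.84 and 4.29 in DMEM and 3.33, 2.70 and 3.63 in ACM. The groups overlapped at both passages, and the difference was −0.74 at P1 (adjusted p = 0.323) and −0.65 at P3 (adjusted p = 0.732). CBS, the first enzyme of the route from homocysteine to cysteine, read 3.48, 3.10 and 4.30 in P1 DMEM, 3.13, 2.79 and 3.44 in P1 ACM, 3.70, 3.91 and 4.31 in P3 DMEM and 3.27, 2.91 and 3.85 in P3 ACM. Its difference was −0.51 at P1 (adjusted p = 0.435) and −0.63 at P3 (adjusted p = 0.704). CBSL is a near-identical copy of CBS, so these values are uncertain as to which copy they stand for. CTH, the next enzyme of that route, differed by −0.61 and −0.53. The proline enzymes PYCR1 and ALDH18A1 had the smallest differences of the synthesis genes at P1, −0.13 and −0.07.

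ATF4 was among the genes at p of 0.05 or less at P3 but not at P1. It read 4.65, 4.68 and 5.73 in P1 DMEM and 4.37, 4.55 and 4.56 in P1 ACM. In P3 it stood at 5.02, 5.55 and 5.57 in DMEM and 4.55, 4.66 and 4.97 in ACM. The groups did not overlap at either passage, with P1 DMEM 1 and 2 close above the highest P1 ACM array. The difference was −0.52 at P1 (standard error 0.29, adjusted p = 0.316) and −0.65 at P3 (adjusted p = 0.703). Without P1 DMEM 3 the P1 difference was −0.17. With any single array left out, ATF4 kept a p of 0.05 or less by limma at P3 in 5 of 12 cases.

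DDIT3, the factor that links the response to cell death, read −2.89, −3.25 and −0.54 in P1 DMEM and −3.09, −2.88 and −2.51 in P1 ACM. The P3 values were −2.91, −1.998 and −1.38 in DMEM and −2.35, −3.58 and −2.65 in ACM. Apart from DMEM 3 the P1 arrays of both media lay between −3.25 and −2.51. TRIB3, a pseudokinase that holds ATF4 activity back, read 0.92, 0.50 and 3.81 in P1 DMEM and 0.78, 0.79 and 1.25 in P1 ACM. Its P3 levels were 1.76, 1.81 and 3.17 in DMEM and 1.21, 0.73 and 1.51 in ACM, without overlap. The difference of TRIB3 was −0.80 at P1 (adjusted p = 0.6) and −1.10 at P3 (adjusted p = 0.74). Without P1 DMEM 3 the P1 difference turned to 0.24 for DDIT3 and to 0.23 for TRIB3. STC2, a secreted glycoprotein, was lower at P1 (−0.72, adjusted p = 0.141) and differed by −0.31 at P3 (adjusted p = 0.784). It read 1.38, 1.26 and 2.08 in P1 DMEM, 0.66, 1.00 and 0.90 in P1 ACM, 0.74, 1.31 and 1.55 in P3 DMEM and 0.90, 1.15 and 0.63 in P3 ACM.

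CHAC1, which breaks down glutathione, has 2 probes that went opposite ways, although both carry the same RefSeq accession. The brighter probe read 1.41, 1.78 and 0.15 in P1 DMEM and 1.59, 2.08 and 1.98 in P1 ACM, and 0.78, 1.32 and 0.78 in P3 DMEM against 2.03, 1.67 and 1.91 in P3 ACM. It was higher in ACM by 0.91 at P3 (adjusted p = 0.69) and its P1 difference was 0.77 (adjusted p = 0.229). The other probe read 0.06, −0.15 and 2.31 in P1 DMEM, −0.72, −0.50 and −0.11 in P1 ACM, 0.59, 1.02 and 1.90 in P3 DMEM and −0.20, −0.20 and 0.02 in P3 ACM. It differed by −1.18 at P1 and by −1.29 at P3, the latter at p of 0.05 or less. No direction can therefore be given for the CHAC1 transcript. The 4 probes of ATF3, a stress-induced factor, also disagreed, with differences at P1 of −0.67, −0.45, 0.15 and 0.19.

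**Figure D3:**
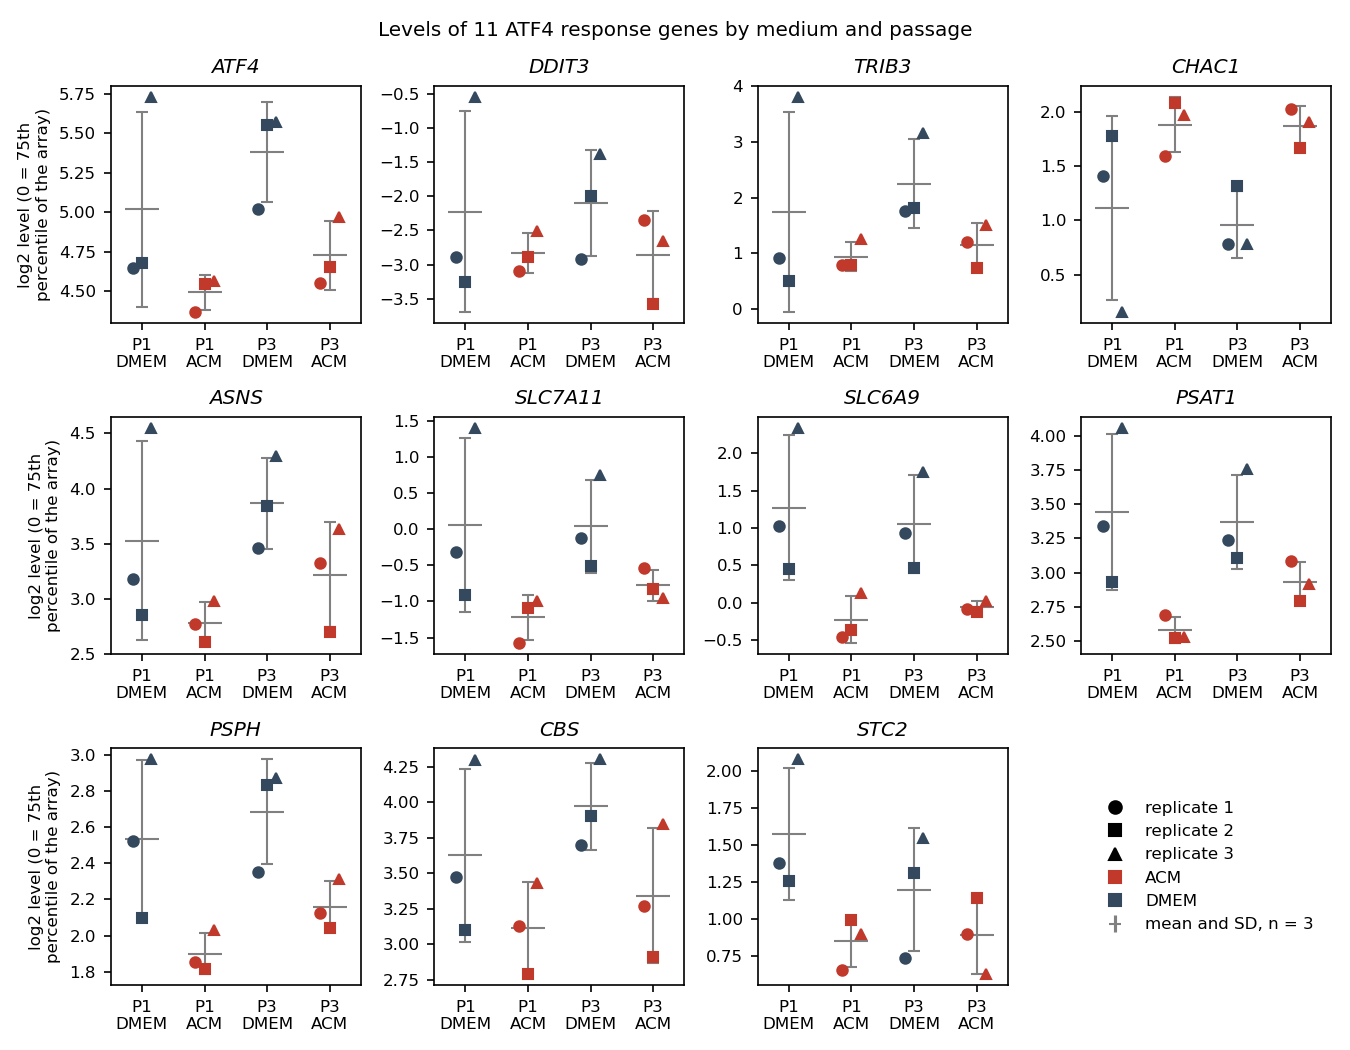
Level (log2, 0 is the 75th percentile of the array) of 11 genes in each of the 12 arrays, by medium and passage, with the mean and SD of 3 arrays in grey and a symbol for each replicate number. In SLC6A9, PSAT1 and PSPH the ACM points lie below the DMEM points of the same passage. In 10 of the 11 genes P1 DMEM 3 is the highest P1 DMEM point, CHAC1 (brighter probe) being the other.

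The list also moved between arrays of the same group, read here as a single array against the mean of the other 2. The array was picked for its values and the media were compared as 3 arrays against 3, so the sizes are unlike measures. P1 DMEM 3 was the highest of the 12 arrays for 29 of the 35 genes, where 7.44% of all genes had their highest value there. Against the mean of P1 DMEM 1 and 2 it was higher for 33 of the 35 genes and more than 2-fold higher for 21 (7.12% of genes), with a median of 1.09. For this and the other arrays set against their group, the share of all genes is given only for the 2-fold counts. All 3 roles took part, with medians of 1.06 for synthesis, 1.08 for transport and 1.09 for the stress factors, and 7 of 12, 5 of 8 and 9 of 15 genes over 2-fold. The largest were DDIT4, an inhibitor of mTORC1, at 4.03 (16.3-fold), TRIB3 at 3.10, DDIT3 at 2.53, the stress protein NUPR1 at 2.45 and ATF3 at 2.33. The other 3 ATF3 probes were higher there by 2.58, 0.19 and 0.27, so the rise of ATF3 depended on the probe. DDIT4 read 0.03 and −0.00 in P1 DMEM 1 and 2 and 4.04 in P1 DMEM 3. SLC7A11 followed at 2.02 and ALDH1L2, a mitochondrial folate enzyme, at 1.85. CHAC1 was lower by −1.44 in its brighter probe and higher by 2.35 in the other.

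P1 DMEM 3 was also the P1 DMEM array that lay on another slide than its group. P3 DMEM 3, whose group shares slide 3, was higher than the mean of P3 DMEM 1 and 2 for 32 of the 35 genes and more than 2-fold higher for 8 (1.92% of genes), with a median of 0.59. The 8 were DDIT4, ATF3, TRIB3, PPP1R15A, SLC3A2, DDIT3, SLC7A11 and SLC6A9, and all 12 synthesis genes stayed under 2-fold. In ACM the corresponding array stood out less, with 25 of 35 genes higher and 1 over 2-fold in P1 ACM 3 (2.18% of genes), and 25 higher and 3 over 2-fold in P3 ACM 3 (3.28%). NUPR1 was over 2-fold higher in both of these ACM arrays. It read 1.59, 1.33 and 3.91 in P1 DMEM, 0.08, 0.81 and 2.42 in P1 ACM, 2.00, 2.76 and 3.28 in P3 DMEM and 0.80, 0.48 and 2.47 in P3 ACM, so the media overlapped at both passages. P3 ACM 1, the array of its group on another slide, had 22.8% of all genes over 2-fold higher but 1 of the 35. For P1 DMEM 3 the slide and the sample cannot be told apart.

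**Figure D4:**
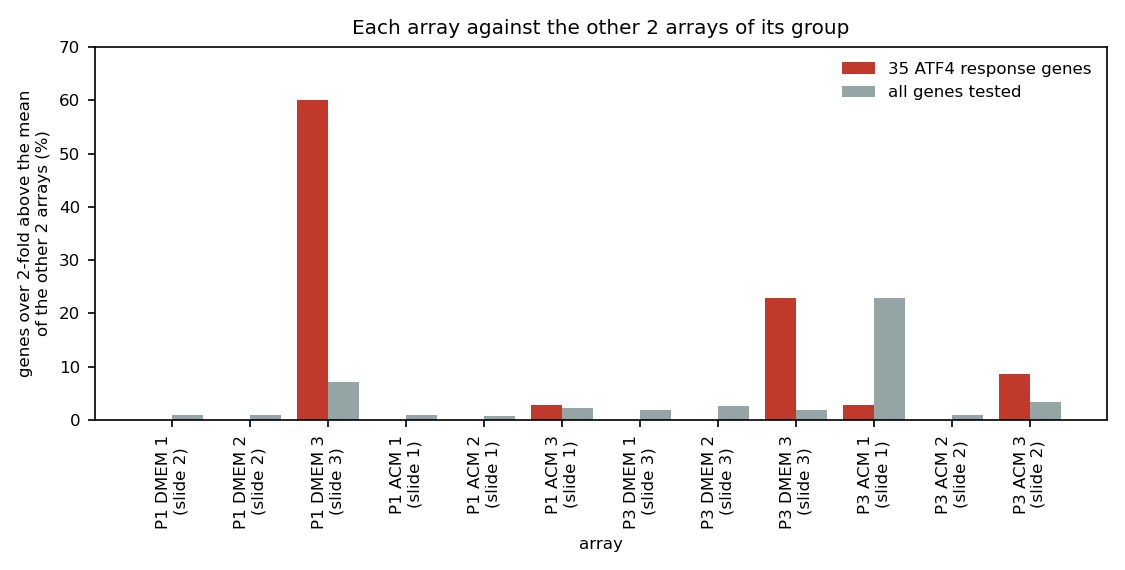
Share of genes (%) that were more than 2-fold higher on an array than the mean of the other 2 arrays of its group, for the 35 genes (red) and for all genes tested (grey), with the slide of each array. The red bar of P1 DMEM 3 stands for 21 of 35 genes, that of P3 DMEM 3 for 8, and no other array has more than 3.

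Arrays with the same replicate number were set against each other as pairs at P1. There the deviations of same-numbered arrays correlated weakly (0.42, 0.19 and 0.27), and those of unlike numbers at −0.31 to −0.02. With 3 arrays per group these correlations are not independent of each other. The P1 difference was lower in ACM in 3 of 3 pairs for 23 of the 35 genes, against 14.7% of all genes, with medians of −0.27, −0.17 and −1.16 in replicates 1, 2 and 3. SLC6A9, PSAT1 and PSPH were among the 23. At P3 same-numbered arrays correlated at 0.23, −0.19 and 0.06, which was not taken as a pairing, and no count over pairs is given. With the replicate number as a block in the fit of all 4 groups, 14 genes were lower at P1 with p of 0.05 or less in place of 7. NUPR1 then joined SLC6A9 and SLC7A11 past both thresholds. That fit pairs the P3 arrays by number as well, so its counts rest in part on a pairing not found at P3. With replicate 3 left out of all 4 groups, 27 genes were lower at P1 with SLC6A9 and NUPR1 past the thresholds, and 28 were lower at P3 with NUPR1 and DDIT4 past them. The median differences were then −0.21 and −0.24.

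Taking the mean of both passages, 33 of the 35 genes were lower in ACM (38% of genes) and CHAC1 and SESN2 higher (62%), with a median of −0.47. Past the thresholds were SLC6A9 (−1.31, adjusted p = 0.114), NUPR1 (−1.30, adjusted p = 0.208) and SLC7A11 (−1.05, adjusted p = 0.154), where 0.241% of all genes were lower by this rule, 3.73% higher and 3.98% either. At p of 0.05 or less 11 genes were lower (4.47% of genes), 5 of synthesis, 3 transporters and 3 stress factors, and CHAC1 was higher (18.6%). Without P1 DMEM 3, without P3 DMEM 3 or without P1 ACM 1 a single gene was past the thresholds, SLC6A9 in each case. The difference between the passages in the ACM effect was not past the thresholds for any of the 35 (0.0514% of all genes higher, 6.82% lower and 6.88% either), and by limma none of the 35 had p of 0.05 or less (0.166% higher and 8.09% lower). It was higher at P3 for 23 of the 35 genes (31.6% of genes) and lower for 12 (68.4%). The smallest p belonged to SLC1A5, with a difference of 0.66 (adjusted p = 0.72).

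The change from P1 to P3 within a medium was tested as well. Within a medium most P1 arrays lay on another slide than most P3 arrays, so passage and slide are largely confounded here. In DMEM 17 of the 35 genes were higher (58.7% of genes) and 18 lower (41.3%) at P3. None was past the thresholds, where 1.14% of all genes were higher by this rule, 0.582% lower and 1.72% either. At p of 0.05 or less none was higher (5.15% of genes) and SLC1A5 alone was lower (2.97%), by −0.86 (adjusted p = 0.571). SLC1A5 and SLC7A5 did not overlap and were lower at P3 (7.74% of genes). In ACM 26 genes were higher at P3 (39.1% of genes), among them 11 of the 12 synthesis genes, with none past the thresholds (0.0356% of genes higher, 7.48% lower and 7.52% either) or at p of 0.05 or less (0.178% higher). PSAT1, PSPH, SHMT2, MTHFD2, PCK2 and SLC7A11 did not overlap and were higher (2.7% of genes), by 0.25 to 0.45. Without P1 DMEM 3 the DMEM count became 24 higher, and JDP2, TRIB3 and DDIT4 passed the thresholds upward. With slide as a fixed block the DMEM counts were 2 higher and 33 lower, with 12 past the thresholds, all lower. That fit leans on P1 DMEM 3, the P1 DMEM array on the slide of P3 DMEM. In ACM the fixed block left 26 higher.

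Within a slide only comparisons across passages were possible. On slide 2, P3 ACM 2 and 3 set against P1 DMEM 1 and 2 gave 18 genes lower and 17 higher in ACM with a median of −0.02, where 53.7% of all genes were lower. A difference between the roles was not tested there. Of the 8 transporters 7 were lower (median −0.47), SLC6A9 by −0.79, SLC1A5 by −0.75 and SLC7A5 by −0.75, while 11 of the 15 stress factors were higher (median 0.06), DDIT4 by 1.24. On slide 3 the P3 DMEM arrays were lower than P1 DMEM 3 for 33 of the 35 genes (49.9% of genes) and more than 2-fold lower for 14 (2.87%). On slide 1 the P1 ACM arrays were lower than P3 ACM 1 for 26 genes (56.3% of genes), none over 2-fold (0.803%), and for 11 of the 12 synthesis genes (median −0.38).

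A fit with slide as a block joins these within-slide steps. Its ACM difference at P3 is the slide 2 difference minus the slide 3 difference, so it leans on P1 DMEM 3 for every gene. It put 33 of the 35 genes higher in ACM at P3, with ATF3, TRIB3, DDIT4 and PPP1R15A past the thresholds, and 24 of 35 lower at P1 with none past them. With slide as a random block (correlation 0.362) 32 were lower at P1 with SLC6A9 and SLC7A11 past the thresholds, and at P3 18 were lower with none past them. In the fixed-block fit 11 genes were higher at P1, ATF4 and TRIB3 among them (0.090 and 0.14), and the median of the stress factors was 0.048, so the direction at P1 also depended on the fit for part of the list.

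**Figure D5:**
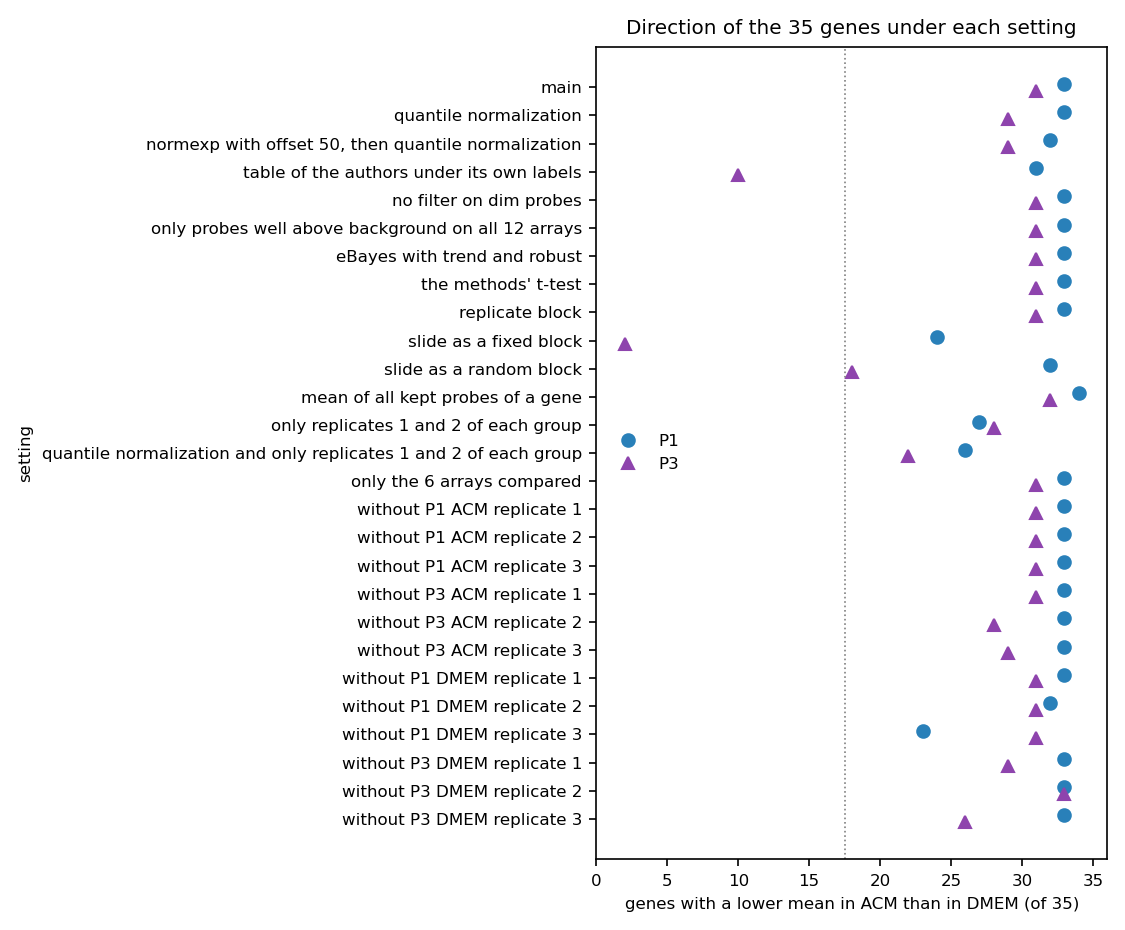
Number of the 35 genes with a lower mean in ACM than in DMEM at P1 (circles) and at P3 (triangles) under each way of processing the arrays, with a dotted line at the middle of the scale. At P1 the count runs from 23 to 34, and at P3 it falls to 18 with slide as a random block, to 10 with the table of the authors and to 2 with slide as a fixed block.

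The genes upstream of ATF4 were looked at beside the list. Of 14 genes of eIF2 control (kinases, GCN1, eIF2 and eIF2B subunits and the phosphatase regulator PPP1R15B), 13 had a probe and were tested. At P1 11 were lower (36.1% of all genes) and 2 higher in ACM with a median of −0.04, and at P3 7 were lower (49.6%). None was past the thresholds at P1 (13.6% of all genes in either direction) or at P3 (1.73%). Most of these genes are bright. Of all genes with a mean level between 0 and 2, 62.4% were lower at P1 (median −0.06). Of those above 2 it was 75.3% (median −0.11), so the P1 count is not read as particular to eIF2 control. GCN2 (EIF2AK4), the kinase that senses uncharged tRNA, differed by 0.25 at P1 (adjusted p = 0.322) and PERK (EIF2AK3), the kinase of the endoplasmic reticulum, by −0.04.

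Another 12 genes reported as ATF4 targets or amino acid transporters were tested. Of these 10 were lower in ACM at P1 (36.1% of all genes) and 8 at P3 (49.6%). None was past the thresholds at P1 (13.6% of all genes in either direction) or at P3 (1.73%). Most of these genes are bright as well. Among bright genes the share lower at P1 was 62.4% (mean level between 0 and 2) and 75.3% (above 2). SLC38A1, a glutamine transporter, was lower by −0.62 at P1 (adjusted p = 0.103) and by −0.49 at P3 (adjusted p = 0.659). The secreted stress hormones GDF15 and FGF21 were 3.99 and 3.37 higher in P1 DMEM 3 than in the mean of P1 DMEM 1 and 2. FGF21 was dim (mean level −3.80). GPT2, which makes alanine, was 1.26 higher and CEBPA 1.33 higher, where 7.12% of all genes were over 2-fold higher. Others of the 12 moved little, with GOT1 at 0.36, XPOT and SLC38A1 at 0.32 and SLC36A1 at −0.07. For GDF15, FGF21 and GPT2 the P1 differences between media, −0.98, −0.19 and −0.53, came with standard errors of 1.00, 0.82 and 0.37.

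Markers of other cell types were read in the same arrays. The 10 astrocyte genes summed to levels of 2.09 to 2.57 in P1 ACM against 2.41 to 2.63 in P1 DMEM. At P3 the ranges were 1.84 to 2.63 with ACM and 2.08 to 2.41 with DMEM, so the media overlapped at both passages. Of the 9 tested, ALDH1L1, S100B and GJB6 were past the thresholds higher in ACM at P1 and none was at P3, while AQP4 was past them lower at both. Where 13.5% of all genes were past the thresholds higher at P1, the same was true of RBFOX3 among 4 neuron genes and of CX3CR1 and P2RY12 among 3 microglia genes. S100B, GJB6, RBFOX3, CX3CR1 and P2RY12 were near the floor, well above background on 7, 8, 9, 8 and 6 arrays. Their mean levels were −6.19, −5.94, −5.45, −5.71 and −6.56, and each was highest in P1 ACM, which lay on slide 1. A probe was kept if well above background on all arrays of any group, so no presence of other cells is read from these calls. The neuron genes summed to 3.09 to 3.14 (ACM) and 3.08 to 4.34 (DMEM) at P1, and to 2.94 to 3.42 and 3.19 to 4.08 at P3. For microglia the P1 sums were −2.10 to −0.57 (ACM) and −2.92 to −0.995 (DMEM), and the P3 sums −1.40 to −0.81 and −2.37 to −1.12. The progenitor and medulloblastoma markers ran from 6.67 to 7.02 (ACM) and from 6.86 to 7.37 (DMEM) at P1, and from 6.89 to 6.96 and from 7.17 to 7.67 at P3, without overlap at P3. Each sum mostly follows the brightest gene of its list: GJA1 (mean level 1.78), TUBB3 (3.30), CSF1R (−1.70) and VIM (6.74). At P1 3 of the 4 neuron genes were higher in ACM and TUBB3 was lower by −0.79. At P3 7 of the 8 progenitor markers were lower, VIM by −0.53, and MYC was higher by 0.13. The part of these markers in the results of the 35 genes was not tested. In bulk RNA fewer cells that express a gene and less of its transcript per cell cannot be told apart.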

How the data were processed

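RNA of 12 Daoy cultures was hybridised to one-colour Agilent arrays. The authors deposited scanner output of Agilent Feature Extraction 11.0.1.1, in which the processed intensity of each of 44495 spots is already background-subtracted. They also deposited a table of log2 values that were quantile-normalized. Here 1377 control spots were left out, spots of a probe were averaged, and log2 intensity was taken minus the 75th percentile of the array. Of 34127 probes 25771 were named through RefSeq accessions, and 31078 were kept by a filter on dim probes, for 25275 genes.

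The 4 group means were fitted at once in limma 3.58.1 (R 4.3.3) with 8 residual degrees of freedom and Benjamini-Hochberg adjustment over the kept probes. With 3 arrays per group, the number of arrays limits the precision, and p-values measure only the spread between these arrays. Each gene was read through its brightest probe. The members and lists were chosen with earlier results of these data known. Values for every array are given for ATF4, DDIT3, TRIB3, CHAC1 and ASNS, for genes past the thresholds at P1, at P3 or between passages in a medium, and for the 2 smallest p-values of each role at P1 and at P3. NUPR1, DDIT4 and other genes named outside this rule were chosen after their values were seen.

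Alternatives were quantile normalization, normexp, the table of the authors, the dim-probe filter, a trended fit, the methods' t-test, the replicate number or the slide as a block, the mean of probes, the 6 arrays compared, and omission of each array. The use of replicates 1 and 2 alone was added after seeing the data. Deviations of same-numbered ACM and DMEM arrays correlated at 0.42, 0.19 and 0.27 at P1 and at 0.23, −0.19 and 0.06 at P3. Counts over pairs were therefore made at P1 but not at P3, whereas the replicate block used the numbers at both passages. The test was checked on simulated data with planted changes and independent noise of equal spread for every probe. These data held no slide or replicate effect and no outlying array, so the check does not bear on those. Figures were drawn with matplotlib 3.10.9 in Python 3.11.15.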

Additional observations from a re-analysis of the deposited data

How the results depend on the processing

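The count of genes past the thresholds at P1, 2 as reported, was 4 with quantile normalization, 1 with only the 6 arrays compared, and 0 with the table of the authors, with the methods' t-test and with slide as a fixed block. Leaving out each array gave 0 (P1 DMEM 3) to 6 (P1 DMEM 2). At P3, 1 as reported, it was 2 with the table, with the replicate block and with replicates 1 and 2, also after quantile normalization, 4 with slide as a fixed block (all higher), 0 as a random block and 3 with the 6 arrays, and 0 to 3 with each array left out. Genes lower at P3, 31 as reported, numbered 10 with the table, 2 with slide fixed and 18 with it random. For the mean of both passages, 3 as reported, the count was 0 with the table and with slide fixed, 1 with slide random and with replicates 1 and 2 under either scaling, and 1 to 5 with each array left out. For the difference between passages, 0 as reported, it was 8 with the table, 11 with slide fixed, 1 with slide random and with replicates 1 and 2, and 0 to 2 with each array left out. For P3 against P1 in DMEM, 0 as reported, it was 3 with the table, 12 with slide fixed, 3 with it random, 2 with replicates 1 and 2, 1 after quantile normalization of these, and 0 to 3 with each array left out. The cause of these shifts was not tested.

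The stress factor median at P1 was 0.048 with slide fixed and −0.83 to 0.029 with each array left out. At P3 the table gave medians of 0.47 for synthesis and 0.41 for stress factors. Slide fixed gave 0.55, 0.60 and 0.96 for synthesis, transport and stress factors, and slide random −0.092, 0.0093 and 0.042. Quantile-normalized replicates 1 and 2 gave −0.15 for synthesis and 0.058 for transport.

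At P1 slide fixed gave 0.090 for ATF4 and 0.14 for TRIB3. Replicates 1 and 2 gave 0.081 for DDIT3 and 0.077 for TRIB3, or 0.11 for TRIB3 after quantile normalization. With each array left out DDIT3 ran from −1.12 to 0.24 and TRIB3 from −1.42 to 0.23. The mean of probes gave CHAC1 −0.21 at P1 and −0.19 at P3. At P3 the table gave ATF4 0.42, DDIT3 0.87, TRIB3 0.86, CHAC1 −0.74, ASNS 0.59, SLC7A11 1.12, SLC6A9 0.92, PSAT1 0.47, PSPH 0.52, CBS 0.35 and STC2 0.41. Slide fixed gave ATF4 0.50, DDIT3 1.51, TRIB3 1.97, CHAC1 −0.61, ASNS 0.83, SLC7A11 1.09, SLC6A9 0.50, PSAT1 0.41, PSPH 0.16, CBS 0.42 and STC2 0.45. Slide random gave DDIT3 0.15 and TRIB3 0.020, and STC2 was 0.065 in quantile-normalized replicates 1 and 2. Of the values of single genes under an alternative, 513 kept direction and side of the threshold, 34 reversed, 18 lost and 7 gained the threshold. With the replicate number as a block at P1 the count was 3.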
